A study of Mus musculus with 15 samples.

Results

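The 10 transcription factors and chromatin proteins described here set or change the identity of lung epithelium: Nkx2-1, Foxa1, Foxa2, Cebpa, Gata6, Sox2, Sox9, Hnf4a, Hmga2 and Foxp2. They are 10 of 18193 genes on the array, taken with all 25 probe sets that carry their symbol in the platform annotation, of 45037 probe sets measured. A probe set is a group of short array probes read as 1 signal. Arrays were made from microdissected lung pieces of K-RasG12V knock-in mice, 3 months after an adenovirus had delivered Cre recombinase to the lung. The knock-in allele also carries a colour marker, by which the lesions were found. The groups were H1 lesions (3 arrays), H2 lesions (4 arrays), both early hyperplasias, and normal lung cells (8 arrays) cut from sections of the same lungs. All groups therefore come from mice with the same knock-in allele and virus. A lesion held about 500 cells. The sources used here do not give the basis of the H1 and H2 labels, the number of mice or which pieces shared a mouse. Where pieces of a group share a mouse the p-values below are too small, and where pieces of different groups do they may be too large.

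The lung arises from foregut endoderm, and NKX2-1 is the homeodomain factor that marks it from the start and later switches on surfactant genes in alveolar type 2 (AT2) cells. FOXA1 and FOXA2 are forkhead factors that open chromatin in endoderm and act beside NKX2-1, C/EBP alpha promotes the maturation of AT2 cells, and GATA6 works with NKX2-1 on surfactant promoters. SOX2 belongs to the conducting airways, SOX9 to the growing tips of the embryonic lung, and FOXP2 to lung epithelium during development. HNF4A directs liver and gut programs and HMGA2 is an embryonic chromatin protein. In mouse K-Ras-driven lung tumours, loss of NKX2-1 is known to let FOXA factors and HNF4A turn on gastric genes, and HMGA2 marks advanced, poorly differentiated tumours.

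Foxa2, Foxa1 and Cebpa are the members with an unadjusted p under the threshold when all lesions are set against normal cells, and their promoters are shown because these are the genes on which the results turn. The sequences are RefSeq windows of 250 bases before to 50 bases after an annotated start on GRCm38.p6, read 5′ to 3′ along the gene. Foxa2 lies on the minus strand and its window is chr2:148046920-148047219, the furthest upstream of 3 windows of the gene. Foxa1 lies on the minus strand with its window at chr12:57546062-57546361, and Cebpa on the plus strand at chr7:35119043-35119342. The Foxa1 window, the only one of the gene, lies inside the gene as annotated (57540628 to 57548029), so its start is not the outermost one. Capitals mark matches, on either strand, to any of 6 motifs, and no matches overlap.
The first motif was TGTTTAC, bound by forkhead factors, which 3.65% of 32851 promoter windows of this length held. CAAGTG, the NK2 homeodomain motif, was in 13.6% of them. The C/EBP motif TTGCNNAA was in 10.8%. The GATA motif AGATAA was in 11.2%. The TATA box, as TATAAA, was in 13.6%. The CCAAT box was in 37.4%.
Foxa2: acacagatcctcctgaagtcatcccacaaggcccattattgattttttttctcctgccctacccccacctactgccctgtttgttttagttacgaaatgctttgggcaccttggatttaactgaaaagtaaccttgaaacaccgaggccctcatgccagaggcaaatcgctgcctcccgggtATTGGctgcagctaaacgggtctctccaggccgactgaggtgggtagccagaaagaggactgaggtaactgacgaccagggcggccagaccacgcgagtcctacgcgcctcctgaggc
Foxa1: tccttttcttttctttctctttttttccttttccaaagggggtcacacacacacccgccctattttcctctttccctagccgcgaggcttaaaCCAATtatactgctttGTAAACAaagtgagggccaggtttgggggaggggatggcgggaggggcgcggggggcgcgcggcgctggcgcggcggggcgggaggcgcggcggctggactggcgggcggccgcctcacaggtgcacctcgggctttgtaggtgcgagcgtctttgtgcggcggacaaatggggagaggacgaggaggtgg
Cebpa: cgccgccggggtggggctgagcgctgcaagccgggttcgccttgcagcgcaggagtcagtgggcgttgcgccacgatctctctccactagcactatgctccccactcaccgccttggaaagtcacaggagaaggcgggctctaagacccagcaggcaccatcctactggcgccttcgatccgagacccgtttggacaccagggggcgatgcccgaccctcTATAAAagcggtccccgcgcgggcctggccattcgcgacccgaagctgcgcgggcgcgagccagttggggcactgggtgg
The Foxa2 window held a CCAAT box in reverse, whose first base lay 68 bases before the start. The Foxa1 window held a CCAAT box 157 bases before the start and a forkhead motif in reverse at 141 bases. The Cebpa window held a TATA box 30 bases before the start. These letters are a description of the windows, and no binding was measured. Of the 10 members, 7 had a window in the table used.

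All values are log2 signals, on which a step of 1 doubles the signal. Levels of different probe sets are not comparable with each other, because each responds with its own brightness. As a guide to the background, the median of all probe set means was 3.99, and a probe set below it says little about its transcript. Differences are given with the standard error (SE) of a limma fit over all 45037 probe sets, and a probe set was called at a Benjamini-Hochberg adjusted p under 0.05. Arrays were not equally wide: the SD of log2 values over all probe sets, called the spread here, ran from 1.26 to 1.41 in H1, from 1.42 to 1.68 in H2 and from 1.10 to 1.62 in normal cells. All 7 measured AT2 markers and all 8 markers of alveolar type 1 cells had a mean above 3.99 in every group. The summed AT2 marker signal, on the log2 scale, ran from 11.8 to 13.5 in H1, from 12.7 to 14.2 in H2 and from 7.92 to 14.3 in normal cells. The lowest of these, normal replicate 2, was also the lowest normal array for summed alveolar type 1, club, endothelial, fibroblast and lymphoid markers. That array was not the lowest for macrophage, basal, neuroendocrine or smooth muscle markers. Its summed ciliated marker signal (9.91) was the highest of all arrays. It had the narrowest spread, so cell content and array quality cannot be told apart there. In captured pieces, fewer cells of a type and less RNA per cell cannot be told apart.

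**Figure D1:**
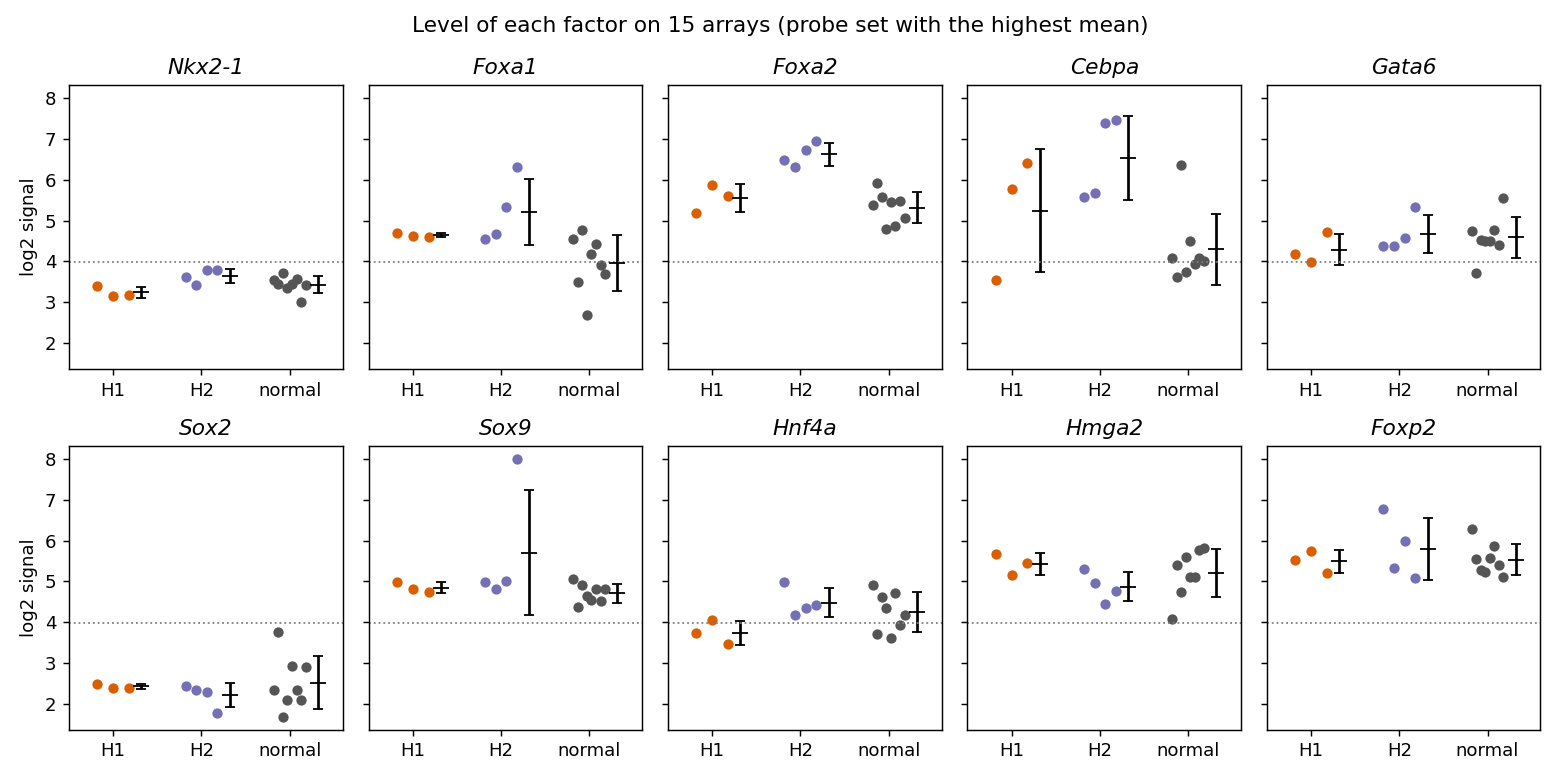
Log2 signal of each factor (y axis, the probe set with the highest mean) on every array of each group; bars are the mean and SD of a group, and the dotted line is the median of all probe set means, 3.99. Foxa2 in the 4 H2 arrays lies between 6.33 and 6.96, above every normal array, and Nkx2-1 and Sox2 lie below the dotted line on all 15 arrays.

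H2 lesions were set against normal cells to ask which lineage factors differ in the second lesion subtype. Foxa2 was higher in H2 and was the only member probe set called, 1 of 25, beside 2.04% of all probe sets called in that comparison (1.70% higher and 0.338% lower). Foxa2 gave 6.50, 6.33, 6.72 and 6.96 in the H2 arrays, and ran from 4.80 through a median of 5.43 to 5.93 in normal cells. All 4 H2 arrays lay above all 8 normal arrays, a separation that 2.97% of all probe sets showed. At an unadjusted p under 0.05 there were 5 of 25 member probe sets, all higher, and 18.9% of all probe sets, 9.89% higher and 8.99% lower. The difference was 1.30 ± 0.23 (SE), or 2.47-fold, between means of 6.63 ± 0.27 (SD, n = 4) in H2 and 5.32 ± 0.38 (SD, n = 8) in normal cells (limma adjusted p = 0.0113). Foxa2 has 1 probe set on the array, so no second one could be compared.

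The Foxa2 call was close to the threshold in several fits. It was not past it without H2 replicate 7 (1.19, limma adjusted p = 0.0514), after a repeated quantile normalization (0.91, adjusted p = 0.113), or with the 3′ to 5′ difference of the Actb or Gapdh control probe sets, a measure that varies with RNA state, in the model (1.37, adjusted p = 0.0529, and 1.25, adjusted p = 0.0726). With the spread of each array in the model the difference was 1.25 and the adjusted p was 0.0475. By rank within its array, Foxa2 stood at the 93.6, 91.9, 92.3 and 92.2 percentile in H2 and between the 74.0 and 93.7 percentile in normal cells, so the groups overlapped on that scale. Its highest normal value came from normal replicate 2, the array with the narrowest spread (1.10) and the lowest AT2 marker signal (7.92). Normal replicate 3 had the highest summed AT2 marker signal of the 15 arrays (14.3), next to 14.2 in H2 replicate 7. By the mean log2 of the same markers it was at 9.70, below H2 replicates 6 (9.93) and 7 (9.89). The Foxa2 level of normal replicate 3 was 5.58, below every H2 array. The part of AT2 marker signal in the Foxa2 difference was not tested.

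Cebpa had the largest difference of the members in H2. It gave 5.58, 5.69, 7.39 and 7.46 in the H2 arrays, and ran from 3.63 through a median of 4.05 to 6.36 in normal cells. The H2 arrays lay above 7 of the 8 normal arrays, and the exception was normal replicate 3. The difference was 2.23 ± 0.57 (SE), or 4.69-fold, with a limma adjusted p of 0.0528, just outside the threshold. Without normal replicate 3 it was 2.52 (adjusted p = 0.011). H1 replicate 2 enters through the variance within groups, which the fit estimates from all arrays, and without that array the adjusted p was 0.034. Without H2 replicate 6 the difference was 1.94 (adjusted p = 0.169) and without H2 replicate 7 it was 1.92 (adjusted p = 0.17). With the Actb or Gapdh 3′ to 5′ difference in the model it was 1.81 (adjusted p = 0.307) and 1.62 (adjusted p = 0.311), and with the spread of each array it was 1.15 (adjusted p = 0.315). Cebpa, the spread and the AT2 marker signal were high on the same arrays: normal replicate 3 (spread 1.62), H2 replicate 6 (spread 1.60) and H2 replicate 7 (spread 1.68) had the 3 highest AT2 marker signals, and their Cebpa levels were 6.36, 7.39 and 7.46. The part of AT2 marker signal and of array spread in the Cebpa difference was not tested beyond that fit.

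Foxa1, the close relative of Foxa2, gave 4.55, 4.66, 5.33 and 6.32 in the H2 arrays, and ran from 2.69 through a median of 4.04 to 4.78 in normal cells. Its groups overlapped, with 2 of the H2 arrays within the normal range. The difference was 1.25 ± 0.37 (SE; limma adjusted p = 0.0917), against a normal mean of 3.96, just under the 3.99 guide. It was past the threshold without normal replicate 3 (1.37, adjusted p = 0.0438) and with array weights (1.45, adjusted p = 0.0213). With array spread in the model it was 0.58 (adjusted p = 0.481), and without H2 replicate 7, the array with the highest Foxa1 level and the widest spread, it was 0.88 (adjusted p = 0.265).

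**Figure D2:**
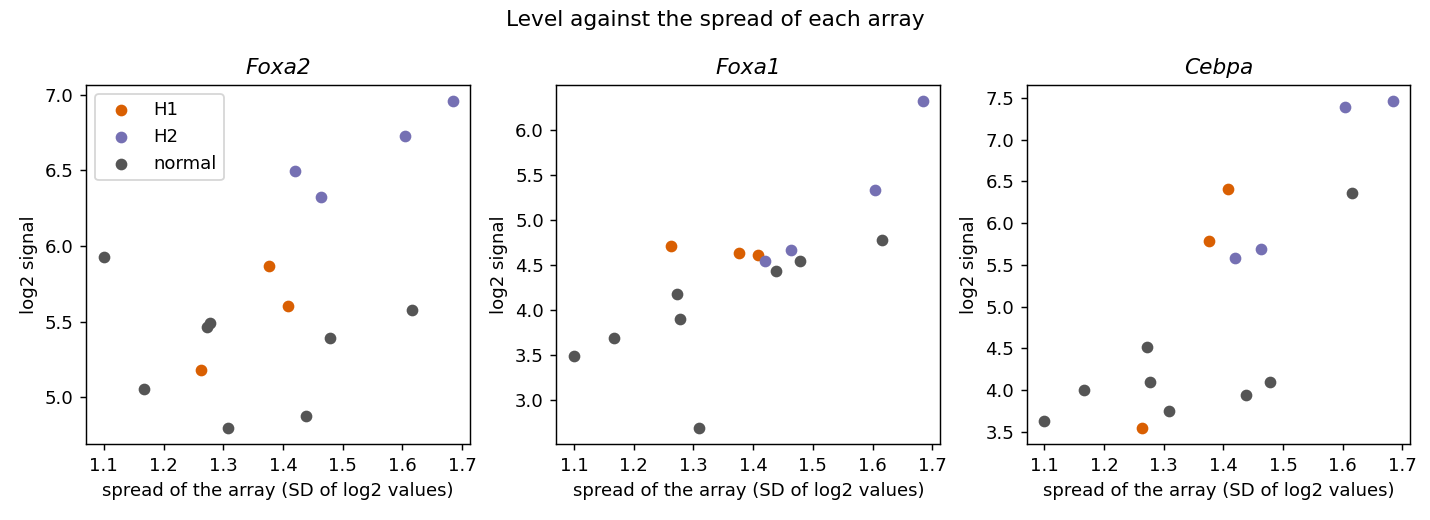
Log2 signal of Foxa2, Foxa1 and Cebpa (y axes) against the spread of each array, the SD of its log2 values (x axes), for H1, H2 and normal arrays. The 4 H2 arrays lie above all others for Foxa2, while Cebpa on the wide normal array at a spread of 1.62 (6.36) lies above the 2 H2 arrays of narrower spread (5.58 and 5.69).

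Nkx2-1, the defining factor of lung epithelium, was not called and its probe set was dim. It gave 3.62, 3.42, 3.79 and 3.78 in the H2 arrays, and ran from 3.00 through a median of 3.45 to 3.71 in normal cells. Every value lay below the 3.99 median, and the difference of 0.22 ± 0.16 (SE; 95% interval -0.13 to 0.57; limma adjusted p = 0.492) was within the overlap of the groups. Nkx2-1 has 1 probe set on the array, so no second one could be compared. Of 20 genes listed as lung targets of NKX2-1, 19 were measured and 15 were higher in H2, with a median of 1.31 against -0.04 for all genes. By limma 2 of them passed the test, both higher (9 at an unadjusted p under 0.05), where 2.73% of all genes were called (2.39% higher and 0.341% lower). The list shares 8 of its genes with the AT2 markers. The lysosomal protease Ctsh rose by 3.48 ± 0.58 (SE), to 9.83 ± 0.16 (SD, n = 4) in H2 against 6.34 ± 1.29 (SD, n = 8) in normal cells (adjusted p = 0.00924), and both of its probe sets were higher. Abca3, a surfactant lipid transporter, rose by 2.35 ± 0.52 (adjusted p = 0.0307), and the lowest of its 3 probe sets differed by 0.03. Slc34a2, a phosphate transporter of AT2 cells, differed by 2.24 (adjusted p = 0.0859). With array spread in the model the median of the list was 0.26, with 13 of 19 genes higher. Without normal replicate 3, 7 were called higher, and without H2 replicate 7, 1 was.

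Sox9 stood out on a single array. Its brightest probe set gave 4.99, 4.81, 5.02 and 8.01 in the H2 arrays, and ran from 4.37 through a median of 4.72 to 5.06 in normal cells. The other 3 H2 arrays lay within the normal range, and only H2 replicate 7 lay above it. The difference of 1.00 ± 0.44 (SE) was not called (limma adjusted p = 0.234), and without H2 replicate 7 it was 0.23. The second Sox9 probe set was also highest on that array, at 4.43, against 2.41, 2.71 and 3.27 on the other H2 arrays and 2.92 to 3.62 in normal cells. The third, which was dim throughout, gave 2.55 there.

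Gata6, Sox2, Hnf4a, Hmga2 and Foxp2 had no probe set called in H2. Gata6 differed by 0.01 to 0.17 over 3 probe sets, of which the brightest gave 4.37, 4.37, 4.57 and 5.35 in H2 and 3.73 to 5.57 in normal cells. Sox2, the airway factor, lay near the bottom of the arrays, at 2.43, 2.34, 2.29 and 1.77 in H2 and 1.68 to 3.75 in normal cells. All H2 arrays lay inside the normal range for Sox2 and this Gata6 probe set. Each of the other Gata6 probe sets had 1 H2 array above the normal range, at 5.85 against a highest normal value of 5.83 and at 3.88 against 3.56.

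Hnf4a, the gut and liver regulator, had 4 probe sets that did not move together. The brightest gave 4.99, 4.18, 4.35 and 4.43 in H2 and 3.62 to 4.92 in normal cells, a difference of 0.23 ± 0.26 (SE). Another differed by 0.63 ± 0.24 (limma adjusted p = 0.174), from values of 3.92, 2.85, 3.17 and 2.67 in H2 and 1.95 to 2.88 in normal cells, all below 3.99. The other 2 differed by -0.40 and 0.03. Of 25 gastric and gut genes listed beside it, 23 were measured, and in H2 9 were higher and 14 lower, with a median of -0.12. Limma called 1, where 2.73% of all genes were called (7 at an unadjusted p under 0.05, where 18.9% of all probe sets were). Fabp1, a fatty acid binding protein of gut and liver, rose by 2.59 ± 0.56 (SE), to 6.04 ± 1.55 (SD, n = 4) in H2 against 3.45 ± 0.74 (SD, n = 8) in normal cells (adjusted p = 0.0289), and both of its probe sets were higher. Its normal mean lay below the 3.99 guide. The signal summed over the 23 genes, of which Tspan8 had the highest mean in H2 (9.27, against 6.58 in normal cells), ran from 9.92 to 10.4 in H2 and from 9.20 to 9.80 in normal cells, with no overlap and opposite in direction to the median. The tetraspanin Tspan8 differed by 2.69 (adjusted p = 0.0612) and the trefoil peptide Tff3 by -0.64 (adjusted p = 0.0965).

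Hmga2 gave 5.31, 4.97, 4.45 and 4.77 in H2 by its brightest probe set, and 4.09 to 5.82 in normal cells. All 4 H2 arrays lay inside the normal range, and the difference was -0.33 ± 0.29 (SE; 95% interval -0.95 to 0.29; limma adjusted p = 0.563). Its other 3 probe sets differed by 0.02 to 0.37 and had means below 3.99. Of 16 oncofetal genes that, like Hmga2, are known targets of the let-7 microRNA or its pathway, 14 were measured and limma called 0 (4 at an unadjusted p under 0.05), with a median of -0.09. Hmgb3, another high mobility group protein, differed by 1.35 (adjusted p = 0.0765), Prtg by -0.52 (adjusted p = 0.204) and Plagl2 by -0.64 (adjusted p = 0.252).

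Foxp2 had 6 probe sets, whose differences in H2 ran from -0.29 to 0.62, with 2 higher and 4 lower. The brightest gave 6.77, 5.33, 6.00 and 5.08 in H2 and 5.12 to 6.27 in normal cells, and the difference was 0.26 ± 0.29 (SE). The largest difference, 0.62 ± 0.34 (limma adjusted p = 0.327), came from the third brightest, which gave 5.17, 4.11, 5.54 and 4.97 in H2 and 3.65 to 5.24 in normal cells. The probe sets of this gene thus gave no common direction.

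**Figure D3:**
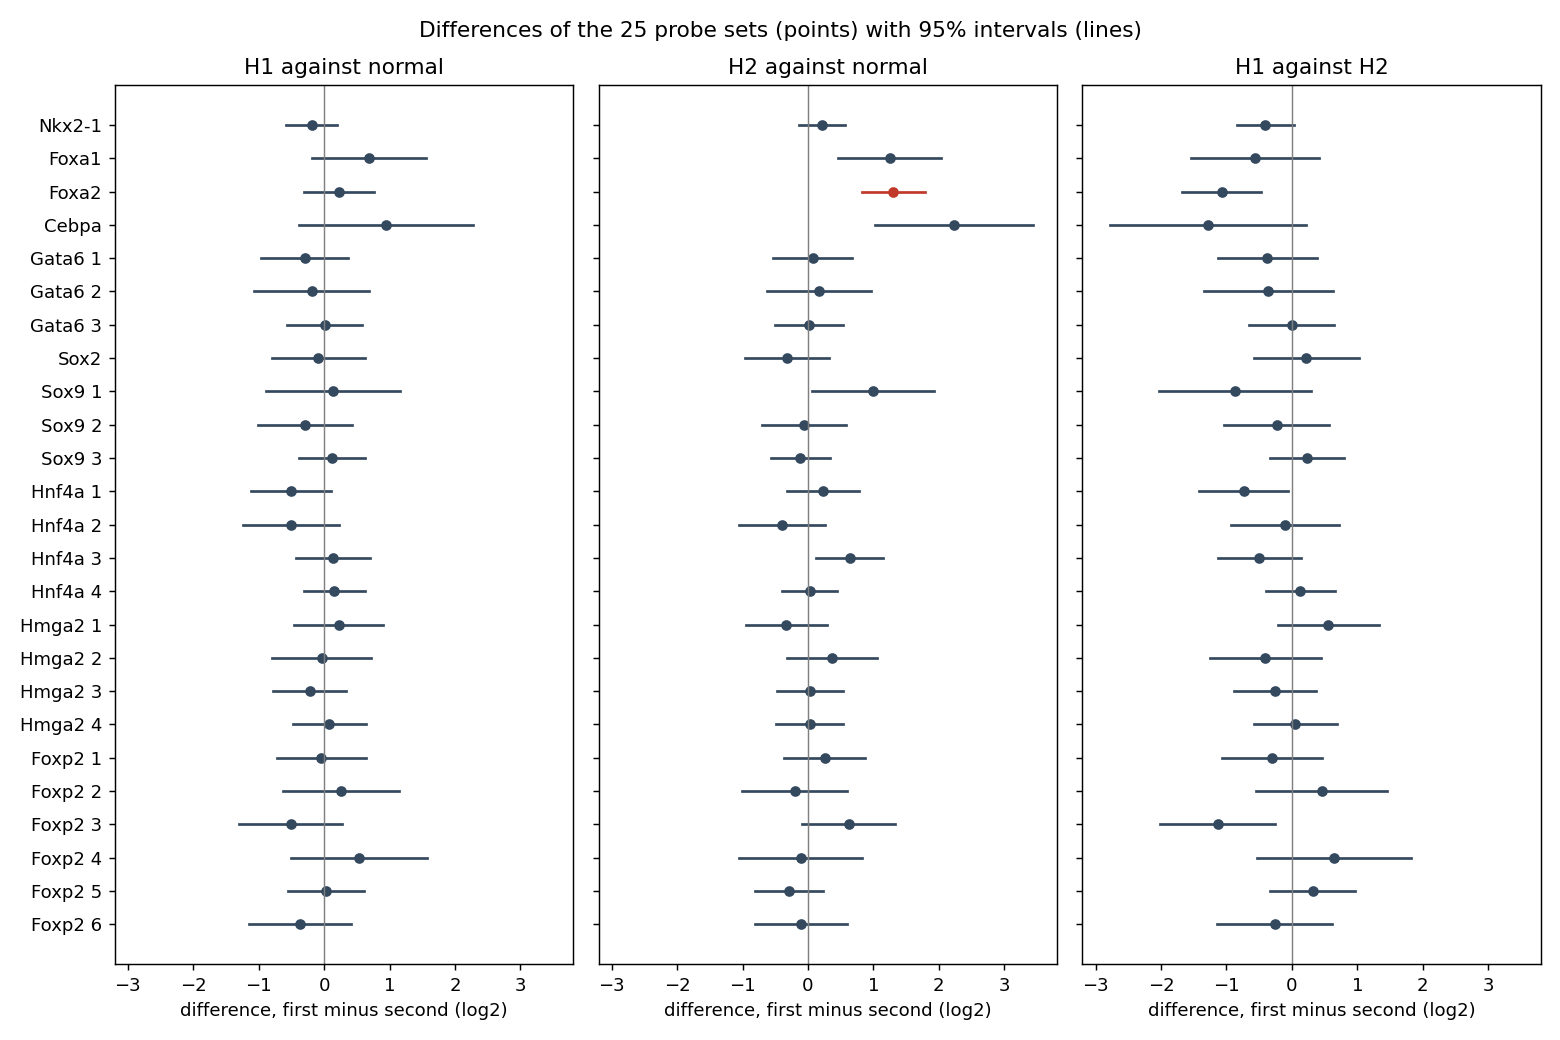
Differences (log2, points) with 95% intervals (lines) of the 25 probe sets in H1 and in H2, each minus normal cells, and in H1 minus H2; probe sets of a gene are numbered by their mean signal, brightest first, and red marks the called one. In H2 against normal Foxa2 is called at 1.30, and the intervals of Foxa1, Cebpa, the brightest Sox9 and the third Hnf4a probe set also lie above 0.

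Among 32 further transcription factors of lung epithelium, 31 were measured. By limma 4 rose and 1 fell in H2, where 2.73% of all genes were called (2.39% higher and 0.341% lower), and the median of the list was 0.14. The unadjusted p was under 0.05 for 13 of 31, where it was for 18.9% of all probe sets. Id2, an inhibitor of basic helix-loop-helix factors found in embryonic lung tips, rose by 2.26 ± 0.37 (SE), to 7.54 ± 1.05 (SD, n = 4) in H2 against 5.28 ± 0.48 (SD, n = 8) in normal cells (adjusted p = 0.00865). Grhl2, a regulator of epithelial junctions, rose by 1.94 ± 0.35 (adjusted p = 0.0131), the ETS factor Elf5 by 1.82 ± 0.29 (adjusted p = 0.00735) and Sox4 by 2.33 ± 0.57 (adjusted p = 0.0457). Sox11 fell, at -1.27 ± 0.21 (adjusted p = 0.00874), with a mean of 3.67 in H2, below the 3.99 guide. Elf5 had a normal mean of 3.30, also below it, and its second probe set differed by 0.22. Of their probe sets, 1 of 4 was higher for Grhl2, 4 of 8 for Sox4 and both for Elf5, and 1 of 6 was higher for Sox11. All 3 of Id2 were higher, but only 1 was called, and the lowest differed by 0.03. With array spread in the model, 2 were called higher and 3 lower, and the median was -0.04.

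Of 23 paralogues of the members, 21 were measured and limma called 0 in H2 (3 at an unadjusted p under 0.05), with a median of -0.06. Gata2, a blood and vessel relative of Gata6, differed by -0.67 (adjusted p = 0.107), Cebpb, a relative of Cebpa, by 0.89 (adjusted p = 0.212) and Gata5 by -0.38 (adjusted p = 0.256).

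**Figure D4:**
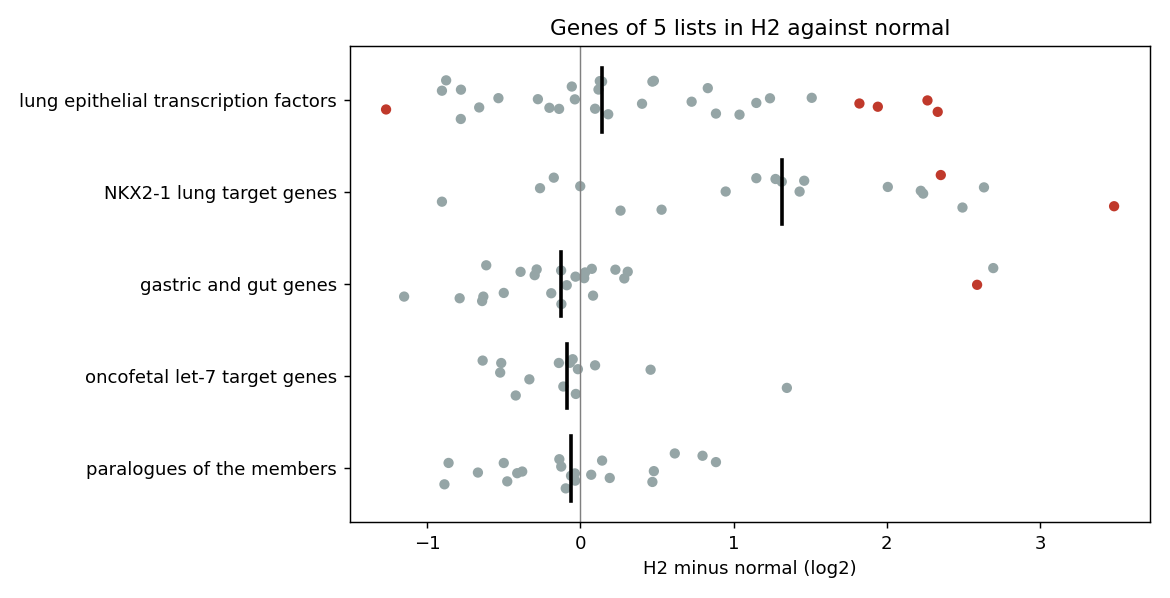
Difference of each measured gene in H2 against normal (log2, x axis) for 5 gene lists; red points are called by limma, bars are list medians, and the vertical spread of points within a list has no meaning. Called genes number 5, 2, 1, 0 and 0 from top to bottom, and the median of the NKX2-1 target list is 1.31.

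The summed endothelial marker signal ran from 8.08 to 8.79 in H1, from 8.12 to 8.72 in H2 and from 7.97 to 10.8 in normal cells, so the groups overlapped, with 2 of 10 markers higher and 8 lower in H2 and none called by limma (4 at an unadjusted p under 0.05). All 4 H2 arrays had summed AT2 marker signals above 7 of the 8 normal arrays and below the highest of them, normal replicate 3. By the mean log2 of these markers, H2 replicates 6 (9.93) and 7 (9.89) lay above that array (9.70). Of the 7 AT2 markers all were higher in H2 and Abca3 was called, where 2.73% of all genes were called. Among fibroblast markers Itga8, an integrin chain, fell by 3.06 (adjusted p = 0.00352) and the collagen gene Col1a2 rose by 1.57 (adjusted p = 0.0422). Both probe sets of Itga8 were lower, and 2 of 3 of Col1a2 were higher, the lowest at -0.28. Of 6 club cell markers Cyp2f2 alone was higher, by 1.57 (adjusted p = 0.0377), from a normal mean of 3.63. The other 5 were lower, and the median was -0.22. Of 7 macrophage markers 5 were higher and 2 lower in H2, with a median of 0.45 and none called. Their summed signal ran from 9.13 to 10.3 in H2 and from 7.28 to 9.87 in normal cells, so the groups overlapped. The part of these cell types in the differences of the lineage factors was not tested.

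The whole expression pattern of Foxa2 was compared with that of the other genes by the root mean square (RMS) difference of gene-centred log2 values over the 15 arrays. The RMS of Foxa2 around its own mean was 0.64. The 3 genes most like it were the nuclear pore gene Nup205 (0.26), the histone deacetylase gene Hdac2 (0.29) and the ETS family repressor Etv3 (0.30). Since the measure also favours genes of similar variance, it is a description only.

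H1 lesions were set against normal cells to ask the same of the first subtype, with the same normal arrays. No member probe set was called by limma and 0 of 25 passed an unadjusted p of 0.05, where 0.00222% of all probe sets were called and 3.84% passed that looser threshold, 1.63% higher and 2.21% lower. Foxa2 gave 5.18, 5.87 and 5.60 in the H1 arrays, all inside the normal range of 4.80 to 5.93, and the difference was 0.23 ± 0.25 (SE; 95% interval -0.31 to 0.76; limma adjusted p = 0.999). Foxa1 gave 4.71, 4.63 and 4.61, in the upper part of the normal range, and differed by 0.69 ± 0.41. Cebpa was uneven, at 3.55, 5.79 and 6.41 in H1, so that 1 array lay below all 8 normal arrays and another above all of them. Its difference was 0.95 ± 0.63 (95% interval -0.38 to 2.28), and without H1 replicate 2, the low array, it was 1.80. H1 replicate 2 also had the narrowest spread (1.26) and the lowest AT2 marker signal (11.8) of the 7 lesions.

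Nkx2-1 gave 3.40, 3.15 and 3.18 in H1, and differed from normal cells by -0.19 ± 0.18 (SE). Sox9 gave 4.99, 4.81 and 4.73 by its brightest probe set, inside the normal range. Hnf4a gave 3.73, 4.05 and 3.46, a difference of -0.51 ± 0.29. Hmga2 gave 5.68, 5.16 and 5.44, inside the normal range, and differed by 0.22 ± 0.32. Gata6 differed by -0.30 ± 0.32, Sox2 by -0.09 ± 0.34 and Foxp2 by -0.05 ± 0.32 by their brightest probe sets. The 95% intervals of all 25 probe sets included 0.

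Of the listed genes, limma called 0 in H1, beside 0.00550% of all genes. In the list of lung factors, 2 of 31 had an unadjusted p under 0.05, with Id2 at 1.55, Klf4 at -1.92 and Sox11 at -0.42. The 3 probe sets of Id2 ran from -0.83 to 1.55, and 1 of them was higher. Of the NKX2-1 targets, 16 of 19 were higher, with a median of 1.11 and 3 at an unadjusted p under 0.05, among them Ctsh at 2.44, Chia1 at 1.45 and Abca3 at 1.40. The gastric and gut list had a median of -0.07 (2 at an unadjusted p under 0.05), with Tff3 at -0.62, Cdx1 at -0.48 and Tspan8 at 1.58. The oncofetal list had a median of -0.16 (1 at an unadjusted p under 0.05), with Arid3a at -0.63, Trim71 at -0.47 and Igf2 at -0.29. The paralogues had a median of -0.07 (0 at an unadjusted p under 0.05), with Nkx2-5 at -0.49, Cebpg at 0.49 and Nkx2-4 at -0.36.

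With H1 and H2 joined as 1 group, lesions were compared with normal cells for what early growth has in common. No member was called by limma, beside 0.169% of all probe sets (0.162% higher and 0.00666% lower), and 3 of 25 had an unadjusted p under 0.05, all higher. Of all probe sets 11.1% did, 6.30% higher and 4.76% lower. Cebpa differed by 1.68 ± 0.51 (SE), to 5.98 ± 1.33 (SD, n = 7) in lesions against 4.30 ± 0.87 (SD, n = 8) in normal cells (limma adjusted p = 0.232). Foxa1 differed by 1.01 ± 0.32 (adjusted p = 0.251) and Foxa2 by 0.84 ± 0.26 (adjusted p = 0.234). Cebpa was called in 1 of 15 fits that left out an array, that without H1 replicate 2 (2.09, adjusted p = 0.0333). The other 22 probe sets differed by -0.44 to 0.63. No member had values that separated the 7 lesions from the 8 normal arrays, and 0.171% of all probe sets did.

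In the same comparison, where 0.247% of all genes were called (0.236% higher and 0.0110% lower), limma called Id2 among the lung factors (1.96 ± 0.33, adjusted p = 0.0242; 9 at an unadjusted p under 0.05), with Sox11 at -0.91 and Elf5 at 1.28 next. Of the NKX2-1 targets it called Ctsh (3.03 ± 0.51, adjusted p = 0.0248; 9 at an unadjusted p under 0.05), with Abca3 at 1.94 and Lpcat1 at 1.99 next, and without H2 replicate 7 it called none. It called 0 gastric and gut genes (3 at an unadjusted p under 0.05), with Tff3 at -0.63, Tspan8 at 2.22 and Fabp1 at 1.60. It called 0 oncofetal genes (2 at an unadjusted p under 0.05), with Hmgb3 at 0.90, Prtg at -0.40 and Plagl2 at -0.44, and 0 paralogues (2 at an unadjusted p under 0.05), with Gata2 at -0.44, Cebpg at 0.56 and Gata1 at -0.39. Among the 3 probe sets of Id2, 2 were higher and 1 was called, and the lowest differed by -0.06.

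H1 was compared with H2 directly, which is also the test of whether their differences from the shared normal arrays are unequal. Limma called 0 of 45037 probe sets, or 0%, although 11.5% had an unadjusted p under 0.05, 5.32% higher and 6.15% lower in H1. Among the members that looser threshold took 3 of 25, each lower in H1. Foxa2 differed by -1.07 ± 0.28 (SE; 95% interval -1.68 to -0.47; limma adjusted p = 0.312), from means of 5.55 ± 0.35 (SD, n = 3) in H1 and 6.63 ± 0.27 (SD, n = 4) in H2. A probe set of Foxp2 differed by -1.14 ± 0.42 (adjusted p = 0.358), with 3.68, 4.22 and 3.54 in H1 and 5.17, 4.11, 5.54 and 4.97 in H2, while another of its probe sets differed by 0.65. The brightest Hnf4a probe set differed by -0.74 ± 0.32 (adjusted p = 0.411). The H1 and H2 values did not overlap for 3 of 25 probe sets, those of Foxa2, Nkx2-1 and the brightest Hnf4a, where 16.9% of all probe sets were separated in this way. Cebpa differed by -1.28 ± 0.71 (95% interval -2.78 to 0.22). The subtypes were therefore not shown to differ in any of these factors, and the intervals do not show that they are alike.

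Between the subtypes, the lung factors with the lowest p were Elf5 (-1.25), Sox11 (0.84) and Grhl2 (-1.35), with 8 of 31 at an unadjusted p under 0.05. Those of the NKX2-1 targets were Scgb3a1 (0.73), Pla2g1b (-1.37) and Abca3 (-0.95), with 1 of 19. Those of the gastric and gut list were Fabp1 (-2.31), Gkn3 (1.82) and Cdx2 (-0.90), with 6 of 23. Those of the oncofetal list were Arid3a (-1.09), Hmgb3 (-1.05) and Igf2bp3 (0.60), with 2 of 14, and those of the paralogues Sox3 (1.27), Gata2 (0.54) and Cebpb (-0.92), with 1 of 21. Limma called 0 of these.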

How the data were processed

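Gene expression was measured on 15 Affymetrix arrays, 1 per microdissected piece of mouse lung. Per the labels' protocols RNA was extracted with a PicoPure kit, amplified and labelled with WT-Ovation One-Direct. The values, as deposited, are probe set signals on a log2 scale, and the submitters' processing notes name affy and RMA, the usual background correction, quantile normalization and probe summary, without version. The deposited arrays are not matched in distribution, with SDs of 1.10 to 1.68 and 2553 to 6292 probe sets over 6, so how far quantile normalization was applied cannot be read from them. Amplification from few cells can widen the spread between arrays; the number of arrays limits precision.

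Of 45101 probe sets, 64 array controls were left out and 45037 tested. The platform annotation gave 34945 probe sets 1 gene symbol, 932 several and 9160 none; 34741 were found by gene ID in the RefSeq table, and no symbol changed. Limma 3.58.1 in R 4.3.3 (lmFit, eBayes) compared lesions with normal cells in a fit of 2 groups, and H1, H2 and normal cells in a fit of 3, with Benjamini-Hochberg adjustment over all probe sets within each comparison and a threshold of 0.05. It was tested on simulated arrays of independent noise. These lack the differences in spread between the deposited arrays, so that test does not cover them. A listed gene is represented by its brightest probe set, by the mean of the 15 arrays. The share at an unadjusted p under 0.05 was counted over all probe sets and not over these brightest ones. Named from each list were the called genes, at most 6, or the 3 of lowest p where fewer than 3 were called. The members and lists were chosen with earlier results of these data known. Alternatives were another scaling, a filter on dim probe sets, 1 probe set per gene, a trended prior, array weights, array spread or 3′ to 5′ control differences as covariates, fewer arrays in the fit, a replicate block, and each array left out. Promoter windows are RefSeq sequences of GRCm38.p6; the build behind the array annotation is not given in the sources used here.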

Additional observations from a re-analysis of the deposited data

Results flagged for a closer look

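In 50 sets of 4 or 8 arrays of a group, 4 had a highest array far from the nearest other one (Dixon's test at 95%), and chance gives about 1 in 20. Cebpa was 6.36 in normal replicate 3, with 4.51 the next normal value. The brightest Sox9 probe set was 8.01 in H2 replicate 7, with 5.02 next, and a dim one was 2.96 in H2 replicate 1, with 2.58 next. A Foxp2 probe set was 6.69 in normal replicate 2, with 4.15 next, and no other Foxp2 probe set stood out in that array by this measure.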

How the results depend on the processing

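Of 25 member probe sets, the number called in H2 against normal cells was 1. It was 2 when arrays were centred on their medians and 3 with array weights. It was 0 after repeated quantile normalization, with the replicate block or with the Actb or Gapdh 3′ to 5′ covariate. The filter on dim probe sets kept 7 member probe sets and called 2, where it called 1290 of 15011 probe sets. With 1 probe set per gene 2 of 10 members were called, where 615 of 18193 genes were. Leaving out 1 array gave 0 (without H2 replicate 7) to 3 (without normal replicate 3), and 0 to 1 (without H1 replicate 2) for lesions against normal cells. Over all probe sets, lesions against normal cells called 76 (73 higher, 3 lower), and 148 with repeated quantile normalization (122 higher, 26 lower), 177 with the filter, 228 with weights, 134 with array spread (81 higher, 53 lower), 42 with Gapdh, 35 without the 2 narrowest normal arrays, and 19 (without H2 replicate 5) to 340 (without H1 replicate 2) on leaving out 1 array. H2 against normal cells called 919 (767 higher, 152 lower), and 409 with quantile normalization (315 higher, 94 lower), 3225 with weights, 502 with only the arrays compared, 347 with array spread (163 higher, 184 lower), 84 with Actb, 88 with Gapdh, 421 without the narrowest arrays, and 204 (without H2 replicate 6) to 2129 (without normal replicate 3) on leaving out 1. H1 against normal cells called 1, and 2 with 1 probe set per gene or Actb, 19 with weights, 21 with array spread, 3 without the narrowest arrays, 0 with the block, and 1 to 3 on leaving out 1. H1 against H2 called 0, and 1 with 1 probe set per gene or without the narrowest arrays, 76 with weights, and 0 to 1 on leaving out 1. The replicate block called 17 probe sets in H2 and gave Foxa2 a difference of 1.32 (limma adjusted p = 0.151). The deviations of same-numbered arrays correlated over 0.1 in 4 of 7 pairs (-0.13 to 0.33), and 1 of 7 lesions matched its own number best, so the data do not show that the numbers pair the arrays, and the labels do not say. Without H2 replicate 7 the Foxa2 adjusted p was 0.0514. The cause of these shifts was not tested. No member difference that was called turned its sign under any of these settings. The spread covariate and omissions applied to the lung factor and NKX2-1 target lists were chosen after seeing the data.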
